A study of Mus musculus with 12 samples.

Results

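Islets that lack the PPARγ2 isoform were compared with islets that carry it, over both leptin states of the study. All 12 of the 12 Agilent Whole Mouse Genome 4x44K arrays entered the comparison, chosen by their genotype labels: 6 arrays of PPARγ2-null islets (3 PPARγ2KO and 3 POKO, labelled DKO) against 6 arrays of PPARγ2-intact islets (3 WT and 3 ob/ob, labelled OB). PPARγ2KO islets lack PPARγ2 alone, ob/ob islets lack leptin alone, and POKO islets lack both. All mice were of the mixed C57BL/6 x Sv129 strain, were fed chow and were 4 weeks old by the labels, while the study's text gives a slightly higher age and says that they were female. The deletion is present in every tissue of the animal and not in islets alone. Each array held RNA pooled from hand-picked islets of several mice after overnight culture, so that an array and not a mouse is the replicate. The leptin state was a term of the model, and the measurement of interest was the effect of PPARγ2 ablation that is common to lean and leptin-deficient islets.

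PPARγ is a ligand-activated nuclear receptor that binds DNA as a heterodimer with an RXR receptor and switches on genes of fatty acid uptake and storage. The gene has more than a single promoter. PPARγ1 starts from the upstream promoters and is made in many tissues, whereas PPARγ2 starts from an internal promoter, carries additional amino acids at its N-terminus and is best known from adipocytes. In β-cells PPARγ has been linked to the expansion of cell mass and to the handling of lipids, and leptin-deficient ob/ob mice, which overeat and become insulin resistant, are a standard setting in which that expansion takes place.

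The promoters of Pparg are shown because the allele under study removes the isoform of only the last of them. RefSeq holds 3 start windows of Pparg in the build GRCm38.p6, all on the plus strand of chromosome 6. The 250 bases before the most upstream start, which lies in the part of the gene that gives PPARγ1, and those before the most downstream start, which gives PPARγ2, read as follows, with each CCAAT or its reverse complement in capitals.
Pparg upstream start, chr6:115360894-115361143, plus strand: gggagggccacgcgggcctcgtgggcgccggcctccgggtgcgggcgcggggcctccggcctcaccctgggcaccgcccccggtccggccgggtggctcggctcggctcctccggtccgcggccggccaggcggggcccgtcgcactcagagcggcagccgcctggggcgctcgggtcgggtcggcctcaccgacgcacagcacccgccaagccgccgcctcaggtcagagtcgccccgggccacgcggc
Pparg PPARγ2 start, chr6:115421816-115422065, plus strand: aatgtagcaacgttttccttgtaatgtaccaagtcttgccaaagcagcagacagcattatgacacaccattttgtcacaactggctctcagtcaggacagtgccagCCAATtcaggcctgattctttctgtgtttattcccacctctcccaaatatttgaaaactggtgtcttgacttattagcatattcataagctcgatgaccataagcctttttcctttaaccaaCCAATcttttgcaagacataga
The window before the PPARγ2 start held 40.8% G and C against 82.4% before the upstream start. CCAAT, searched on both strands, occurred 2 times before the PPARγ2 start and 0 times before the upstream one. The middle start, not shown, lay between these, with 63.6% G and C and 1 match. It occurs in 37.4% of the 32851 RefSeq promoter windows of 300 bases, so that its presence is common.

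The values are log2 signals after quantile normalization over the 12 arrays. By the scanner software, 54.3 to 57.5% of WT spots exceeded the background clearly, as did 57.1 to 60.9% of PPARγ2KO, 60.4 to 64.9% of ob/ob and 61.4 to 61.5% of POKO spots. Of the 41174 probes, 24298 were well above background on all 3 arrays of at least 1 genotype and are called detected below. On each of the 3 slides WT and ob/ob lay at the first and the second position and PPARγ2KO and POKO at the third and the fourth, so that position on the slide and PPARγ2 state cannot be told apart. All 14 acinar markers were well above background on all 12 arrays, with a summed signal of 21.37 to 21.57 (log2) in intact and 21.45 to 21.62 in null islets, beside 19.27 to 19.84 and 19.51 to 19.69 for the 7 β-cell markers. These markers are among the brightest probes, where ranks set the value, and with scaling to the 75th percentile their summed signal was 21.08 to 21.84 in intact and 21.38 to 21.91 in null islets.

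No probe passed the test for an effect of PPARγ2 ablation. In the limma fit with PPARγ2 state and leptin state as terms, 0 of 41174 probes (0%) had a Benjamini-Hochberg adjusted p of at most 0.05, and 0 (0%) had one of at most 0.2. At an unadjusted limma p under 0.05 there were 1268 probes (3.08%), 585 of them higher (1.42%) and 683 lower (1.66%) in null islets, where 2059 would be expected with no effect at all. The error of this fit also holds any difference of the effect between the backgrounds. In a fit of the 4 genotype means, whose error does not, the count was 1547. In the first of these fits, with PPARγ2 state and leptin state as terms, the leptin term called 2453 probes (5.96%) at the adjusted limit of 0.05. The precision was not the same for all genes, but the median standard error of a detected probe was 0.165 and the median half-width of its 95% confidence interval was 0.367 on the log2 scale. For 21284 of the 24298 detected probes (87.6%) the whole interval lay within a log2 fold change of 1 in either direction, and 124 (0.51%) had an estimate of at least 1 in size. The 6 null arrays lay entirely below the 6 intact ones for 26 probes (0.0631%) and entirely above them for 13 (0.0316%). Separation within each background on its own, 3 arrays against 3, was found in the same direction for 96 lower (0.233%) and 39 higher (0.0947%) probes.

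Pparg itself had the smallest p of all probes and the only adjusted p under 0.7. The signal of its probe was 8.87, 8.98 and 8.85 (log2) on the WT arrays and 8.54, 9.77 and 9.61 on the ob/ob arrays. It was 7.44, 7.27 and 6.60 on the PPARγ2KO arrays and 6.41, 7.11 and 7.14 on the POKO arrays. All 6 null arrays were thus below all 6 intact arrays, so that no array went against the PPARγ2 state of its label. The leptin state is not checked by this probe. The gap between the lowest intact and the highest null array was wider than the spread within any genotype other than ob/ob. The log2 fold change was -2.11 ± 0.25 (SE), a 4.31-fold lower signal in null islets, with a 95% confidence interval of -2.67 to -1.55 and an adjusted limma p of 0.282. The difference was -1.79 in lean and -2.42 in leptin-deficient islets, and the test of the difference between them gave an unadjusted limma p of 0.234. Within the 3 slides it was -1.78, -2.18 and -2.36. With normexp background correction, whose offset compresses low signals, the log2 fold change was -1.18. Over the detected probes alone the adjusted p was 0.0532. The probe remained well above background on all 12 arrays, and since its place in the transcript was not analysed here, its signal does not tell PPARγ1 from PPARγ2.

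**Figure D1:**
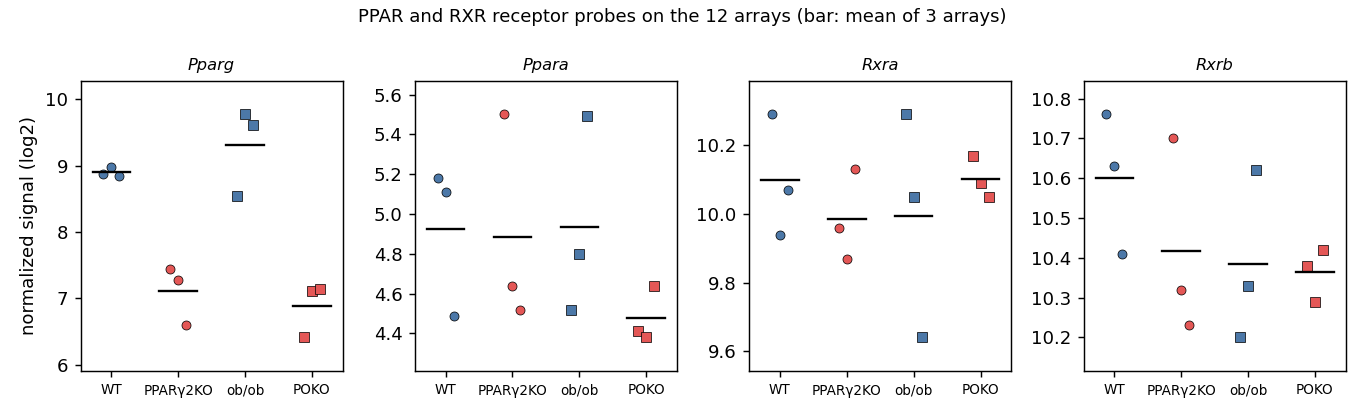
Normalized log2 signal of the Pparg, Ppara, Rxra and Rxrb probes on each of the 12 arrays by genotype (blue, PPARγ2-intact; red, PPARγ2-null; circles, lean; squares, leptin-deficient), with a bar for the mean of 3 arrays and a separate vertical scale in each panel. The 6 null arrays lie at 6.41 to 7.44 and the 6 intact arrays at 8.54 to 9.77 for Pparg, while the groups overlap for the other receptors.

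The partners and relatives of PPARγ showed no difference of that size. Of the other 15 receptors and cofactors of the PPAR, RXR and LXR family, 5 were higher and 10 lower in null islets, and the median log2 fold change was -0.09 beside -0.01 over all probes. Rxra, the most widely expressed RXR partner, differed by 0.00 (95% interval -0.26 to 0.25), and Rxrb by -0.10 (-0.34 to 0.14). Ppara, the PPAR of fatty acid oxidation, was 5.18, 5.11 and 4.49 in WT, 5.50, 4.64 and 4.52 in PPARγ2KO, 4.52, 4.80 and 5.49 in ob/ob and 4.41, 4.38 and 4.64 in POKO. The groups overlapped in both backgrounds and the log2 fold change was -0.25 (-0.75 to 0.25). The probe of Ppard was not well above background on any array, and that of Rxrg on 6 of 12, so their values carry little information. Med1, the Mediator subunit that docks on nuclear receptors, was 0.20 higher (95% interval 0.02 to 0.37, unadjusted limma p of 0.0348), with overlapping groups in the lean background.

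Genes that PPARγ controls in adipocytes did not stand out. Of 28 such genes 27 had a probe and 22 of these were detected; 13 were higher and 14 lower in null islets, with a median log2 fold change of -0.02 beside 0.00 over all 17305 named genes. For 23 of the 27 the 95% interval lay within 1 log2 unit of 0. The smallest p belonged to Ucp2, the mitochondrial uncoupling protein, which was 9.01, 9.71 and 9.72 in WT and 10.80, 10.63 and 9.84 in PPARγ2KO, and 9.58, 9.58 and 9.97 in ob/ob against 9.62, 10.03 and 9.60 in POKO. The lean groups did not overlap and the leptin-deficient ones did, and the common log2 fold change was 0.49 (-0.04 to 1.02). Plin2, which coats lipid droplets, came next at 0.30 (-0.07 to 0.67). Among the classical adipocyte targets, Fabp4, the fatty acid carrier, was at -0.06 and Cd36, the fatty acid transporter, at -0.03, while Lpl, the lipase that releases fatty acids from lipoproteins, was at -0.14. Retn had the most unequal pair of differences, -1.58 in lean and 1.48 in leptin-deficient islets. Neither of these, nor their interaction, had an unadjusted limma p under 0.05. In the RefSeq promoters of the 20 targets with a window, the DR1 element that PPAR and RXR bind, searched on both strands as AGGTCANAGGTCA and in the looser form AGGNCANAGGNCA, was found in 0 of 28 windows. Those forms occur in 0.0396% and 0.381% of all windows, so that such a short window near the start rarely holds either, and nothing follows for more distant elements.

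The other lipid genes moved by little in common. The 29 genes of fatty acid oxidation were split into 15 higher and 14 lower, with a median log2 fold change of 0.01, and 27 of their intervals lay within 1 log2 unit. Etfa, the electron transfer flavoprotein subunit, differed by 0.18 (95% interval 0.01 to 0.35) and Acot1, an acyl-CoA thioesterase, by 0.54 (-0.07 to 1.15). The 32 measured genes of sterol and fatty acid synthesis were split into 16 and 16 with a median of 0.00, which was made up of -0.28 in lean and 0.36 in leptin-deficient islets. Of these 32 genes, 5 were higher in PPARγ2KO than in WT and 27 were higher in POKO than in ob/ob. Me1, the malic enzyme that supplies NADPH, and Fads3, a desaturase family member, had the smallest p for the common effect, at 0.22 (-0.06 to 0.49) and 0.57 (-0.28 to 1.42). Of the 14 genes of cholesterol transport 8 were higher and 6 lower. Abcb1a, a drug and lipid transporter, was at -0.65 but was well above background on only 2 of 12 arrays, both of ob/ob islets, and Abca3, a lipid transporter, was at -0.14 (-0.38 to 0.09).

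Outside the receptor family, the genes with the smallest p are given as a description, since they were picked for it among 41174 probes and none passed the adjusted limit. Apart from Pparg the genes reported in the lower direction were Pold3, Hipk2, Snapc1, Rab6a, Alms1, Ube2o, Msln, 9130023H24Rik, Zfp748, Syn2, Rab6b, Cbx3 and Elovl4, with log2 fold changes of -0.30 to -2.27. Pold3, an accessory subunit of DNA polymerase delta, was 9.42, 9.05 and 9.18 in WT and 8.38, 8.23 and 8.64 in PPARγ2KO, and 9.01, 8.98 and 8.81 in ob/ob against 8.54, 8.45 and 8.22 in POKO. All 6 null arrays were below all 6 intact ones, and the log2 fold change was -0.66 ± 0.10 (SE) with an adjusted limma p of 0.777. The other probes of Pold3 did not follow, at 0.40 and -0.08. Msln, the mesothelial surface protein mesothelin, was 9.97, 10.51 and 11.75 in WT, 7.21, 9.39 and 9.39 in PPARγ2KO, 9.91, 12.51 and 11.18 in ob/ob and 8.43, 8.89 and 8.86 in POKO. Its null arrays also lay below all intact ones, over a wide spread, with a log2 fold change of -2.27 ± 0.52 (SE, adjusted limma p of 0.975). It is a single probe, and its size was the only one among the 30 genes to reach that of Pparg in the lower direction.

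Rab6b, a Golgi GTPase best known from neurons, was 8.63, 8.75 and 8.97 in WT, 6.93, 7.11 and 6.06 in PPARγ2KO, 8.23, 8.87 and 8.67 in ob/ob and 8.02, 8.62 and 7.72 in POKO. Only the lean groups were apart: the difference was -2.09 there and -0.47 in leptin-deficient islets, with an unadjusted limma p of 0.00489 for the interaction. The second Rab6b probe gave -2.58 and -0.47. Its relative Rab6a was at -0.37 at 1 probe and at 0.05 at the brighter other probe. Hipk2, a nuclear kinase, was at -0.66 with a second probe at -0.39, Snapc1, a subunit of the complex that transcribes small nuclear RNA genes, at -0.53 with a second probe at -0.40, and Cbx3, a heterochromatin protein, at -0.30 with a second probe at -0.27. Alms1, the ciliary protein of Alström syndrome, was at -0.38, and Ube2o, a ubiquitin-conjugating enzyme, at -0.86 with a brighter second probe at -0.19. Elovl4, an elongase of very long fatty acids, was at -1.03 with 9 of 12 arrays well above background, and 9130023H24Rik at -0.40. The zinc finger gene Zfp748 was at -0.36, also with 9 of 12 arrays well above background, and at 0.33 at a second probe. With normexp correction the log2 fold change was -0.03 for Zfp748, -0.05 for Alms1, -0.08 for Hipk2, -0.09 for Elovl4, -0.11 for 9130023H24Rik and -0.17 for Ube2o, against -0.50 for Pold3, -0.60 for Rab6b and -1.92 for Msln.

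In the higher direction the 15 genes were Mia, Tlcd2, S100a9, Serpinb6b, Krt14, Bmp2k, Lats1, Snorc, Lsm8, Nkx6-2, Gper1, Slc7a7, Tnf, Gng10 and Entpd1, with log2 fold changes of 0.21 to 4.52. Mia, a small secreted protein of cartilage and melanoma, was 8.26, 8.55 and 8.36 in WT, 9.64, 9.36 and 8.97 in PPARγ2KO, 8.26, 8.32 and 7.88 in ob/ob and 8.70, 8.98 and 8.85 in POKO. All 6 null arrays lay above all 6 intact ones. The log2 fold change was 0.81 ± 0.13 (SE) with an adjusted limma p of 0.777, and both other Mia probes were close to it, at 0.79 and 0.75. Snorc, a proteoglycan of cartilage, was 4.49, 4.74 and 4.38 in WT against 6.10, 6.21 and 5.48 in PPARγ2KO, and 4.38, 3.86 and 4.14 in ob/ob against 4.40, 4.56 and 4.72 in POKO. The groups were apart in both backgrounds but by unequal amounts, 1.39 and 0.43, with an unadjusted limma p of 0.00973 for the interaction. Tnf, the inflammatory cytokine, was 5.68, 5.43 and 5.72 in WT, 6.76, 6.14 and 6.39 in PPARγ2KO, 5.91, 5.23 and 5.51 in ob/ob and 5.82, 6.46 and 5.90 in POKO. It was apart in lean islets and overlapped in leptin-deficient ones, at 0.66 ± 0.16 (SE, adjusted limma p of 0.975).

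Among the rest, Lsm8, a U6 small nuclear RNA-binding protein, and Gng10, a G protein γ subunit, separated all null from all intact arrays by small amounts, 0.21 and 0.26. Serpinb6b, a protease inhibitor, was at 0.73, Slc7a7, an amino acid transporter subunit, at 0.50, Entpd1, the ectonucleotidase CD39, at 0.45 with a second probe at 0.22, Gper1, an oestrogen-binding G protein-coupled receptor, at 0.34 and Tlcd2, a membrane lipid protein, at 0.50. Nkx6-2, a homeobox factor, was at 1.25 with only 8 of 12 arrays well above background, all null ones, 1 WT and 1 ob/ob. It was thus detected through null arrays alone, so that its direction was partly set by that filter. Krt14, a keratin of basal epithelium, was at 0.59 with 10 of 12. Lats1, a kinase of the Hippo pathway, was at 0.92 at this probe but at -0.12 at a far brighter one, and Bmp2k, a kinase induced by BMP2, at 0.65 against -0.02 and 0.00 at its other probes. All genes named here kept their sign within each of the 3 slides, but they were picked by p on the same arrays, so that this is a description only. With normexp background correction those in the higher direction shrank as well, to 0.05 for Krt14, 0.10 for Nkx6-2, 0.12 for Entpd1 and Gper1, 0.14 for Lats1, 0.15 for Tnf, 0.16 for Snorc and 0.20 for Bmp2k, while Mia was at 0.51.

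**Figure D2:**
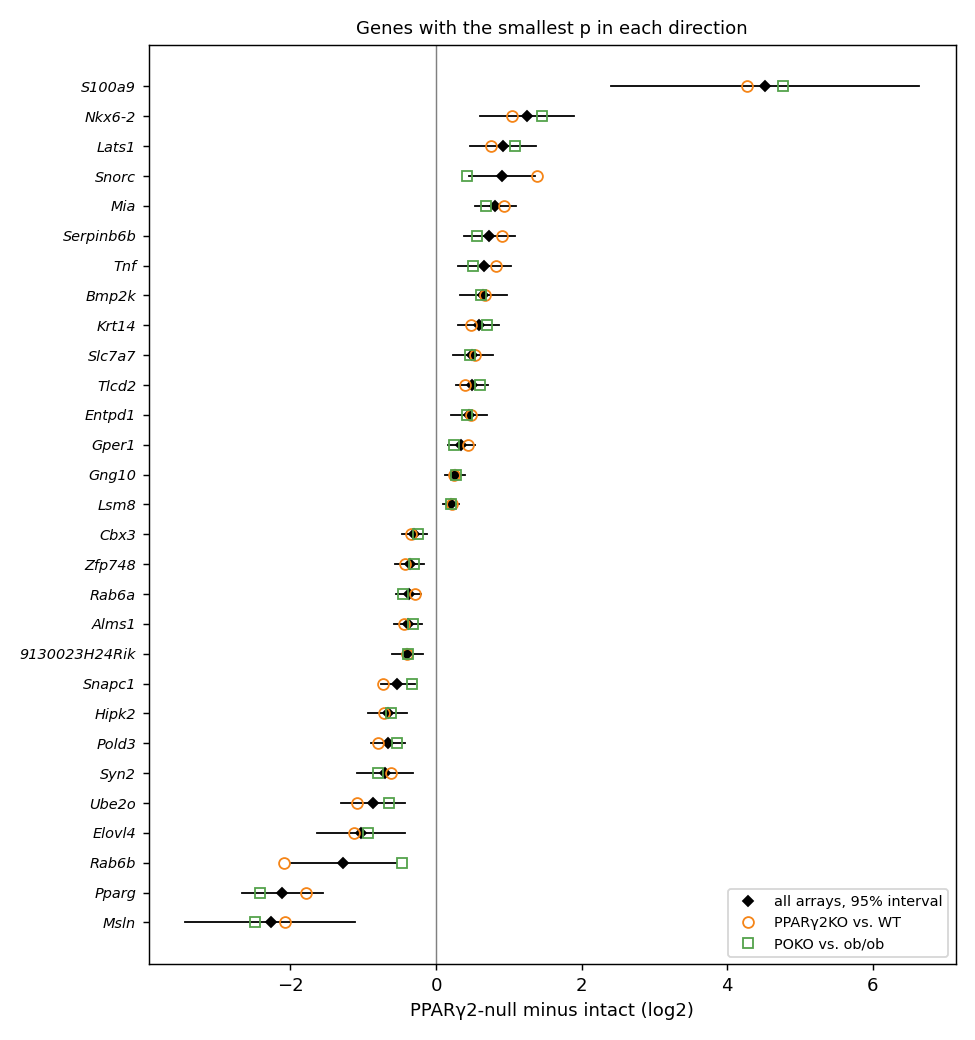
Log2 fold change, PPARγ2-null minus intact, of genes with the smallest p in each direction (black diamonds, fit over all 12 arrays, with lines for the 95% confidence interval; orange circles, PPARγ2KO vs. WT; green squares, POKO vs. ob/ob). Both backgrounds lie on the same side of 0 for all genes shown, which were chosen by the p of this comparison, and Rab6b and Snorc have the widest gaps between backgrounds relative to their intervals.

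**Figure D3:**
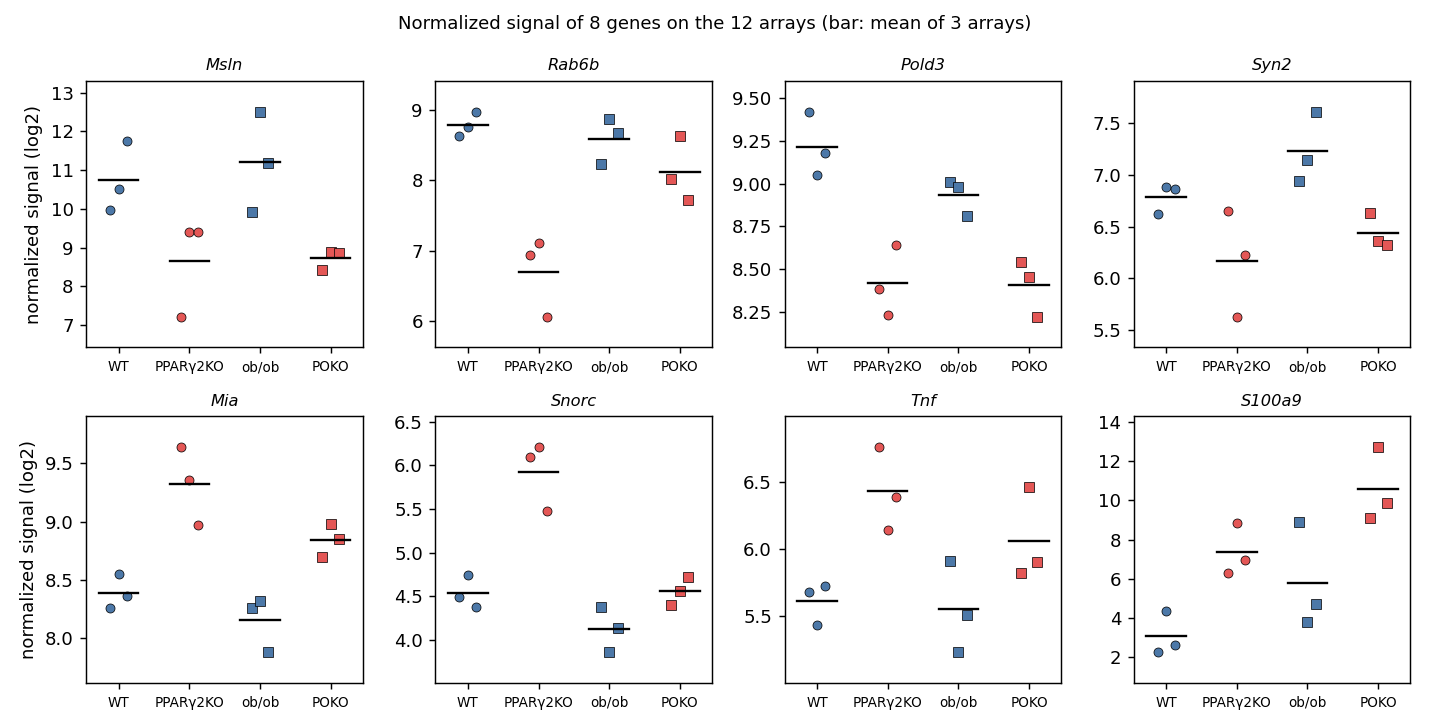
Normalized log2 signal of 8 of these genes on each of the 12 arrays by genotype (blue, PPARγ2-intact; red, PPARγ2-null; circles, lean; squares, leptin-deficient; bar, mean of 3 arrays; separate vertical scale in each panel). The groups are apart on all arrays for Msln, Pold3 and Mia, and 1 ob/ob array at 8.89 overlaps the null arrays for S100a9.

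S100a9, a subunit of calprotectin and one of the most abundant neutrophil proteins, had the largest difference of the 30. It was 2.27, 4.34 and 2.65 in WT, where 1 of 3 arrays was well above background, and 6.28, 8.83 and 6.94 in PPARγ2KO. It was 8.89, 3.81 and 4.70 in ob/ob and 9.12, 12.71 and 9.87 in POKO. The groups were apart in each background, but the first ob/ob array was above all PPARγ2KO arrays, and the log2 fold change of 4.52 ± 0.95 (SE) had an adjusted limma p of 0.975 and a 95% interval of 2.40 to 6.63. Leaving out the first ob/ob array gave 5.17, leaving out the second POKO array 4.01, and normexp correction 1.86. A list of 17 neutrophil genes was written after S100a9 had been seen and is a description only. Of these, 16 including S100a9 were higher in null islets and Elane alone was lower, beside 8473 of the 17305 named genes higher. The median log2 fold change was 1.13. Only 10 of the 17 were detected. Among them, Chil3, S100a8, Camp, Fpr1 and Ctsg passed that filter through POKO arrays alone and Mpo through null arrays alone. The direction of the detected genes was thus partly set by the filter and is not read further. An unadjusted limma p under 0.05 was found for 4 of 17, S100a9 among them, beside 3.08% of all probes. None passed the adjusted limit. The partner of S100a9 in calprotectin, S100a8, was at 3.10, Chil3 at 2.30, Camp, the cathelicidin of neutrophil granules, at 1.95, Ngp at 1.75 and Ltf, lactoferrin, at 1.66. In WT these 5 were well above background on 0 of 3 arrays, and in ob/ob on 1 to 3, so that their size depends on the treatment of dim signals. The summed signal of the list without Lcn2, which islet and duct cells can also make, was 6.94 to 7.21 in WT and 7.61 to 9.70 in PPARγ2KO. It was 10.01 on the first ob/ob array against 6.78 and 6.97 on the other two, and 9.71, 13.10 and 10.40 in POKO. In pooled tissue, more cells of a type and more RNA per cell cannot be told apart.

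Genes of the β-cell had a negative median in the leptin-deficient background and a positive one in the lean background, and the difference between these medians was not tested. Of the 26 measured genes of glucose sensing and insulin secretion, 24 were lower and 2 higher in null islets, with a median log2 fold change of -0.28, but this joined 0.10 in lean and -0.70 in leptin-deficient islets. The median was -0.51 without the first WT array, -0.43 without the third PPARγ2KO array and -0.17 without the third WT array. All 26 were lower in POKO than in ob/ob, while 16 were higher in PPARγ2KO than in WT. No member passed the adjusted limit, and 1 of 26 had an unadjusted limma p under 0.05, beside 3.08% of all probes. That was Sytl4, the granule docking protein granuphilin, with 9.57, 9.86 and 10.91 in WT, 9.62, 9.33 and 10.28 in PPARγ2KO, 9.20, 10.25 and 9.74 in ob/ob and 9.09, 8.87 and 8.55 in POKO. Its lean groups overlapped, its leptin-deficient ones did not, and its log2 fold change was -0.63 (95% interval -1.25 to -0.01, unadjusted limma p of 0.0468). Ptprn2, a protein of the granule membrane, was also at -0.63 (-1.29 to 0.04). Slc2a2, the glucose transporter GLUT2, was at -0.10 in lean and -0.96 in leptin-deficient islets, and Slc30a8, the granule zinc transporter, at 0.09 and -0.82. Ins1 was at 0.48 and -0.28. Ins2 was 18.90 or 18.95 on every array, at the top of the quantile-normalized scale where ranks and not amounts set the value, so that its difference of -0.01 is no measure of Ins2 mRNA.

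The transcription factors of the β-cell showed the same signs. Of 17 measured, 14 were lower and 3 higher, with a median of -0.14 that joined 0.19 in lean and -0.66 in leptin-deficient islets, and 14 of 17 were lower in POKO than in ob/ob. The median was -0.29 without the first WT array, -0.23 without the second and -0.22 without the second PPARγ2KO array, and -0.07 without the third WT and -0.05 without the second ob/ob array. Mafa, an activator of the insulin genes, was the member with the smallest p and was lower in both backgrounds. Its signal was 5.43, 6.26 and 6.87 in WT, 4.10, 2.48 and 6.35 in PPARγ2KO, 4.87, 5.57 and 4.74 in ob/ob and 4.52, 3.81 and 4.39 in POKO. The PPARγ2KO arrays scattered widely and overlapped WT, 1 of them was not well above background, and the log2 fold change was -1.35 (95% interval -2.62 to -0.07, unadjusted limma p of 0.0400). Pax6 was at -0.53 (-1.19 to 0.12). Pdx1, the master regulator of the pancreas, was at 0.30 in lean and -0.62 in leptin-deficient islets, with an unadjusted limma p of 0.0289 for the interaction. Of the 10 hormones and factors of other islet cells 8 were lower and 2 higher with a median of -0.05. Ttr, the thyroid hormone carrier of α-cells, was at -0.48 (-0.94 to -0.02) and Ghrl, ghrelin, at 0.58 (-0.51 to 1.67).

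No gene of protein folding in the endoplasmic reticulum passed the test. Of 22 measured, 21 had a negative and 1, Eif2ak3, a positive common log2 fold change, beside 8473 of the 17305 named genes higher. The median was -0.14, from 0.03 in lean islets, where 12 of 22 were higher, and -0.34 in leptin-deficient ones, where 4 were. All 22 intervals lay within 1 log2 unit, and 1 of 22 had an unadjusted limma p under 0.05, beside 3.08% of all probes. Edem1, which hands misfolded proteins to degradation, had like differences in both backgrounds. It was 10.95, 11.08 and 10.93 in WT against 10.87, 10.23 and 10.65 in PPARγ2KO, and 10.97, 11.18 and 11.21 in ob/ob against 10.91, 10.86 and 10.49 in POKO. All 6 null arrays were below all 6 intact ones, at a log2 fold change of -0.39 (95% interval -0.64 to -0.13, unadjusted limma p of 0.00724). Dnajb9, a cochaperone, was at -0.41 (-0.94 to 0.13) from 0.05 and -0.86.

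Growth and survival lists gave no common difference either, and the genes named from each are the 2 with the smallest p. Of 33 measured cell cycle genes 23 were higher and 10 lower with a median of 0.09. An unadjusted limma p under 0.05 was found for 1 higher and 1 lower of them, beside 3.08% of all probes. Cdkn1b, the cell cycle inhibitor p27, was at -0.40 (95% interval -0.74 to -0.06), from -0.09 in lean and -0.71 in leptin-deficient islets, and Ccne1, cyclin E1, at 0.27 (0.01 to 0.53). Among 17 apoptosis genes 9 were higher and 8 lower; the effector Bak1 was at 0.27 (-0.11 to 0.64) and Bbc3, the p53 target PUMA, at -0.40 (-0.96 to 0.16), from -1.02 and 0.21. Of 19 genes of insulin and IGF signalling 5 were higher and 14 lower with a median of -0.05. Igf1, the growth factor, was 10.39, 10.75 and 10.23 in WT, 11.01, 11.19 and 10.25 in PPARγ2KO, 9.64, 9.72 and 9.76 in ob/ob and 9.99, 10.41 and 10.39 in POKO. It overlapped in lean islets, was apart in leptin-deficient ones, and differed by 0.46 (0.09 to 0.82, unadjusted limma p of 0.0187). Rps6kb1, the S6 kinase, was at 0.17 (0.01 to 0.34). Of 24 TGF-β pathway genes 17 were higher and 7 lower with a median of 0.12. Bmp7, a ligand of the family, was at 0.40 (0.05 to 0.75), from 0.09 and 0.70, and Thbs1, an activator of latent TGF-β, at 0.28 (-0.02 to 0.58).

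Of 43 measured nuclear genes of oxidative phosphorylation 33 were higher and 10 lower, with a median of only 0.07 and 42 intervals within 1 log2 unit. This joined 0.17 in lean islets, where 36 of 43 were higher, and -0.05 in leptin-deficient ones, where 16 were. An unadjusted limma p under 0.05 for the interaction was found for 14 of 43, all detected, beside 4992 of the 24298 detected probes. The count was 16 of 32 for sterol and fatty acid synthesis and 9 of 29 for fatty acid oxidation. It was 2 of 26 for glucose sensing and insulin secretion. Ndufa10, of complex I, was 10.44, 10.48 and 10.28 in WT against 10.51, 10.59 and 10.64 in PPARγ2KO, and 10.31, 10.19 and 10.24 in ob/ob against 10.49, 10.40 and 10.40 in POKO. It was apart in each background at a log2 fold change of 0.18 (95% interval 0.06 to 0.30), whereas Sdha, the flavoprotein of complex II, was at -0.27 (-0.50 to -0.05). With scaling to the 75th percentile the list's median was 0.12. The 16 measured genes near type 2 diabetes loci had a median of -0.02, with Wfs1 at -0.35 (-0.78 to 0.08) and Adamts9 at 0.31 (-0.09 to 0.72). The 18 clock genes had a median of -0.11, close to equal in both backgrounds at -0.13 and -0.10, and 14 were lower. Cry2, a clock repressor, was at -0.33 (-0.69 to 0.02).

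**Figure D4:**
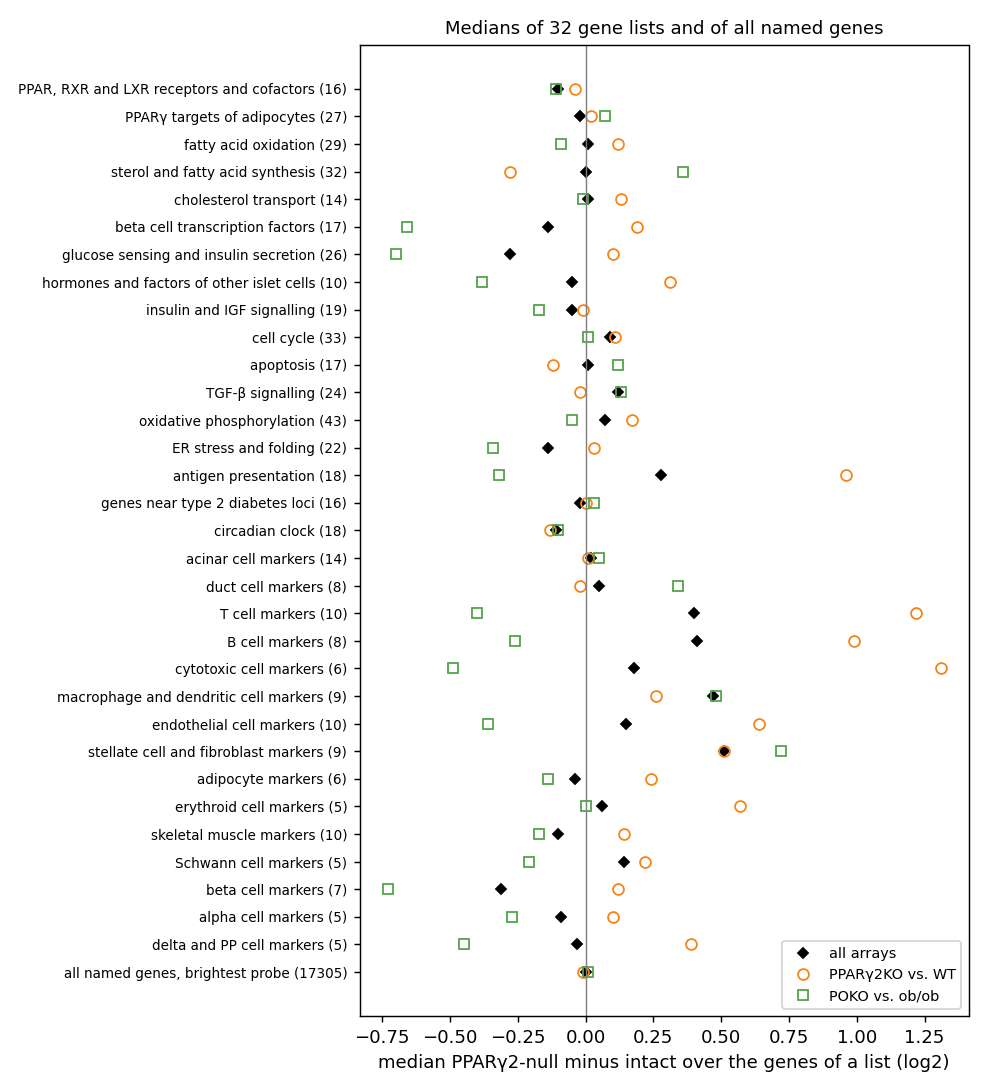
Median log2 fold change over the measured genes of each list (number of genes in brackets) for PPARγ2-null minus intact over all arrays (black diamonds), PPARγ2KO vs. WT (orange circles) and POKO vs. ob/ob (green squares), with all 17305 named genes in the bottom line. The glucose sensing list joins 0.10 and -0.70, antigen presentation joins 0.96 and -0.32, and stellate cell markers are at 0.51 and 0.72.

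Antigen presentation genes and lymphocyte markers had a positive median in the lean background, which rested largely on 1 array, and a negative one in the leptin-deficient background, again with no test of that difference over the lists. Of 18 measured antigen presentation genes 13 were higher and 5 lower, with a median of 0.28 that joined 0.96 in lean and -0.32 in leptin-deficient islets. B2m, the light chain of MHC class I, was 11.34, 11.06 and 11.51 in WT against 12.24, 13.03 and 12.98 in PPARγ2KO, and 13.27, 12.72 and 12.67 in ob/ob against 12.67, 13.13 and 12.61 in POKO. The lean groups were apart by 1.45 and the leptin-deficient ones overlapped, at -0.08, with an unadjusted limma p of 0.00220 for the interaction. Psmb8, an immunoproteasome subunit, was at 1.02 and -0.33. All 10 T cell markers were nominally higher over both backgrounds, with a median of 0.40 from 1.22 and -0.40, and 6 of 8 B cell markers, with a median of 0.41 from 0.99 and -0.26. None of the T cell markers had an unadjusted limma p under 0.05. The summed T cell signal was 8.83 to 8.90 in WT, 8.20 to 10.65 in PPARγ2KO, 10.17 to 11.61 in ob/ob and 9.39 to 11.07 in POKO. That of B cells was 6.70 to 6.94 in WT, 7.06 to 11.46 in PPARγ2KO, 10.37 to 11.87 in ob/ob and 10.18 to 11.74 in POKO. The high end in PPARγ2KO was a single array, the second, whose B cell signal was 11.46 beside 7.06 and 7.22 on the other two. Without that array the common median turned to -0.13 for T cell, -0.15 for B cell, -0.38 for cytotoxic cell markers (from 0.18) and -0.03 for antigen presentation genes. The lean medians then were 0.15, 0.09, -0.06 and 0.23, in place of 1.22, 0.99, 1.31 and 0.96. The part of lymphocyte RNA in the antigen presentation values was not tested.

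Markers of stromal cells had positive medians in both backgrounds. All 9 measured markers of stellate cells and fibroblasts had a positive common log2 fold change, of 0.03 to 0.82, with medians of 0.51 in lean and 0.72 in leptin-deficient islets, but none reached an unadjusted limma p of 0.05. The common median was 0.51, and 0.26 without the second PPARγ2KO array. Lum, a collagen-binding proteoglycan, was at 0.82, Col3a1 at 0.77 and Col1a1 at 0.61. Their summed signal overlapped, at 13.57 to 15.12 in intact and 14.01 to 15.19 in null islets. Of 9 macrophage and dendritic cell markers 8 were higher, with medians of 0.26 and 0.48 (0.47 over both, and 0.25 without the same array) and summed signals of 9.41 to 11.37 in intact and 9.76 to 11.52 in null islets. The 10 endothelial markers had a median of 0.15, from 0.64 and -0.36, with summed signals of 11.75 to 13.74 in intact and 12.83 to 13.49 in null islets. The adipocyte markers, in which the PPARγ2 isoform is best known, summed to 9.90 to 11.84 in intact and 10.65 to 11.78 in null islets, with 1 of 6 not well above background on any array and 1 of 6 on all of them. Duct, α-cell, δ-cell and PP cell, cytotoxic cell, erythroid cell, Schwann cell and skeletal muscle markers had medians of -0.10 to 0.18. Those of cytotoxic cells joined 1.31 and -0.49. The summed skeletal muscle signal was 8.97 to 9.24 in ob/ob and 9.57 to 9.97 in POKO, and overlapped in lean islets. The sums were lower in POKO for α-cells, at 17.59 to 17.66 against 17.72 to 17.81 in ob/ob. For δ-cells and PP cells they were 17.07 to 17.73 against 18.02 to 18.21. Both of these also overlapped in lean islets.

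Many probes differed in opposite directions in the 2 backgrounds. In the fit of the 4 genotype means, probes were counted at an unadjusted limma p under 0.05. PPARγ2KO differed from WT at 3856 probes (9.37%) and POKO from ob/ob at 3822 (9.28%). The common effect had 1547 in that fit, and 1268 in the fit with leptin state as a term. Over the 24298 detected probes the differences in the 2 backgrounds, which share no array but share the 3 slides, had a Pearson correlation of -0.338, and 8044 probes (33.1%) had the same sign. This is a correlation across probes, which are not independent replicates. The groups were apart in both backgrounds but in opposite directions for 697 probes (1.69%), beside the 96 and 39 that were apart in the same direction. The test of the interaction called 0 of 41174 probes (0%) at an adjusted limma p of 0.05, with a smallest adjusted p of 0.118 and 5721 probes (13.9%) at an unadjusted p under 0.05. At an adjusted limma p of at most 0.2 the count was 59. Without the third WT array the test called 685 at the limit of 0.05.

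**Figure D5:**
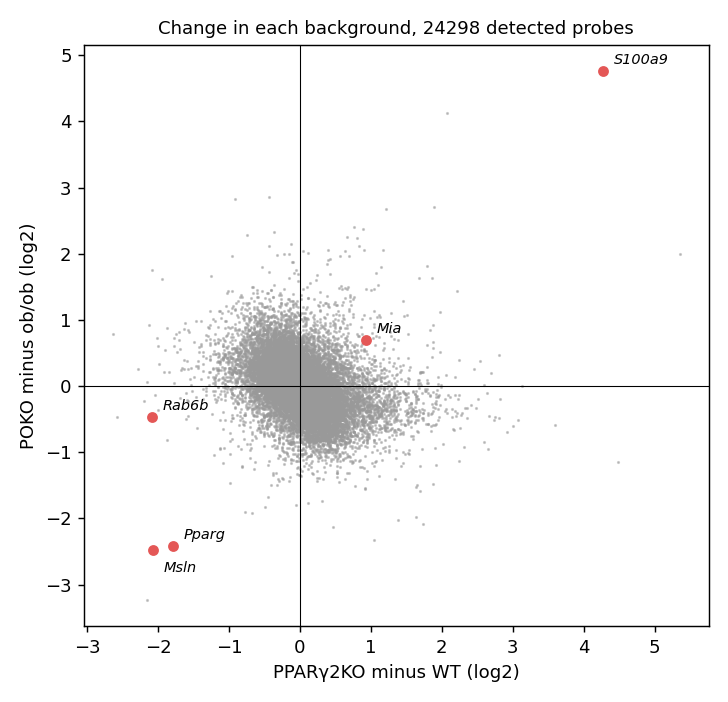
Log2 difference of POKO minus ob/ob (vertical) against PPARγ2KO minus WT (horizontal) for the 24298 detected probes, with 5 named genes in red. The cloud slopes downward (Pearson correlation -0.338), and Pparg, Msln and S100a9 lie far out along the other diagonal.

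The chromosomal neighbours of Pparg were read for their own differences, in the gene order of the RefSeq assembly GRCm38.p6. Of the 10 genes on each side with a probe, 1 had an unadjusted limma p under 0.05. That was Syn2, synapsin II, a vesicle protein next to Pparg but for Timp4. The probe with the smallest p was 6.62, 6.88 and 6.86 in WT, 6.65, 5.63 and 6.23 in PPARγ2KO, 6.94, 7.14 and 7.61 in ob/ob and 6.63, 6.36 and 6.32 in POKO. The lean groups overlapped by a small margin and the leptin-deficient ones were apart. The 3 Syn2 probes were at -0.70, -0.56 and -0.49, each with an adjusted limma p of 0.975. Timp4, which lies inside the Syn2 region, was at -0.03 but dim, and Mkrn2 on the other side was at -0.21. Chromosome 6 as a whole, looked at after these values were seen, had 37 of 648 detected named genes (5.71%) at an unadjusted limma p under 0.05, 20 of them lower. Over all chromosomes the figure was 491 of 13119 (3.74%), with 1.5% on chromosome 16 and 6.32% on chromosome 13 as the extremes.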

How the data were processed

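Deposited scanner output of 12 Agilent arrays in 1 colour was used. Per the file headers, Feature Extraction 10.1.1.1 gave a background-subtracted spot intensity with no normalization between arrays. The authors also deposited quantile-normalized log2 values, which had a correlation of 0.9997 with the values made here and served as an alternative. In R 4.3.3 the intensity of non-control spots was quantile-normalized and log2-transformed, 919 outlier spots were left out and spots of a probe averaged. RefSeq accessions named 25097 of 41174 probes. limma 3.58.1 was fitted with PPARγ2 state and leptin state as terms (9 residual degrees of freedom), with Benjamini-Hochberg adjustment over all probes. The number of arrays limits the precision, and p-values measure the spread between pools.

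Named genes are Pparg, the 15 named detected genes with the smallest p in each direction, 2 members of each list with the smallest p and a fixed set of receptors and β-cell genes; others were named after their values were seen. Some genes that this rule names are left out of the text. The comparison and the lists were chosen with earlier results of these data known. A list gene was read from its brightest probe. Same-numbered arrays share a slide and a scan, but their deviations from the genotype means correlated at -0.274 to 0.258 (18 pairs), so no block was used. Alternatives were scaling, background correction, a dim-probe filter, blocks, array weights and left-out arrays. Lean medians without single PPARγ2KO arrays and the receptor list without Pparg were added after the data were seen. Only the fit with PPARγ2 state and leptin state as terms was tested on simulated data.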

Additional observations from a re-analysis of the deposited data

Results flagged for a closer look

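Single arrays stood apart within the 6 null or the 6 intact arrays for 3 of the 60 groups of 6 tested over the 30 genes, where chance gives about 1 in 20 groups. Snapc1 on the second ob/ob array, at 8.76, lay above the other intact arrays, of which the nearest was at 8.38. Cbx3 on the second PPARγ2KO array, at 11.14, lay below the other null arrays, with the nearest at 11.44. S100a9 on the first ob/ob array, at 8.89, lay above the other intact arrays, with the nearest at 4.70.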

How the results depend on the processing

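The count of probes with an effect of PPARγ2 ablation was 0 in 22 of 23 alternatives. Leaving out each array in turn gave 0 to 1 probes, the 1 being an unnamed probe without the first WT array (adjusted p = 3.74e-04). With the replicate block the count was 0, the smallest adjusted p was 0.698, and the block changed no call. At an unadjusted p under 0.05 the count was 3463 with array weights, 2534 without the first ob/ob array and 1989 without the third PPARγ2KO array, in place of 1268. Pparg kept its direction in all 21 alternatives, at -1.18 with normexp and -1.97 to -2.24 otherwise, with adjusted p values from 0.0532 (dim probes filtered out) to 1.00 (without the third POKO array). The named genes, which were picked by p on the same arrays, kept their sign in all 609 recomputations. The interaction called 1 probe in the authors' values and 1 to 685 probes when an array was left out. There were 685 without the third WT array, 12 without the second and 9 without the second POKO array. At an adjusted limma p of at most 0.2 it called 9602 probes with array weights, where the smallest adjusted p was 0.0561. That count was 2267 with dim probes filtered out, 59 in the main fit, 8 with the replicate block, 1 with scaling and 0 with normexp. Of 448 recomputed list medians 3 moved by more than the spread between arrays: PPARγ targets to 0.08 without the third PPARγ2KO array, oxidative phosphorylation to 0.12 and acinar markers to 0.16 with scaling to the 75th percentile, which moved the median of all probes to -0.0367. Without the second PPARγ2KO array the medians of antigen presentation genes and of T cell, B cell and cytotoxic cell markers turned negative, at -0.03 to -0.38. The causes were not tested. Probes below background carry the least certain values.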
